A study of Mus musculus with 2 samples.

Results

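The transcripts described here encode 10 enzymes of glycolysis, Hk2, Gpi1, Pfkl, Aldoa, Tpi1, Pgk1, Pgam1, Eno1, Pkm and Ldha, which were chosen by name and make up 10 of the 32288 gene rows counted in each library. All 10 were found, and all 10 passed the filter on low counts in both sets of fits. The study prepared periosteal cells, the cells of the layer that wraps a bone, from the femurs and tibias of 4-week-old C57BL6 mice of WT genotype, sorted them by FACS on CD45, CD31, Ter-119 and DAPI, and sequenced 2 single-cell libraries on the 10x platform. Both libraries carry the same strain, genotype, age and tissue label and no treatment, so no condition was compared and the comparisons below are between cell classes. The labels do not say whether the libraries came from different animals or how many mice were pooled. Each p-value therefore measures only the spread between these 2 libraries, estimated over all fitted classes together, and that spread may be technical.

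Glycolysis splits glucose into pyruvate in a fixed chain of reactions and yields ATP without oxygen. The first enzymes spend ATP to prepare the sugar, the later ones return ATP and NADH, and lactate dehydrogenase regenerates NAD+ by turning pyruvate into lactate. Growth-plate cartilage has no blood vessels, and chondrocytes are known for relying on this route. Mature red cells, which have lost their mitochondria, depend on it, and neutrophils are known for strong glycolysis.

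After the study's own limits (at least 500 genes, at least 500 UMIs and at most 10% mitochondrial UMIs) 6276 of 9932 barcodes remained in library 1 and 2893 of 3659 in library 2, with medians of 8164 and 6279 UMIs per cell. A UMI is a molecular tag that counts 1 captured transcript. The 2 libraries shared 8 barcodes, 7 of them among the kept cells. Cells were clustered without the glycolysis enzymes named above and the lists of genes around the pathway read below. Other genes named in this report, marker genes among them, were not held out. Clusters were named from marker genes, and each name below stands for a "-like" class. Chondrocyte (27 and 119 cells in libraries 1 and 2), osteoblast (87 and 167), fibroblast (20 and 295), Lepr+ stromal (82 and 40) and skeletal muscle (70 and 63) classes stood beside B cell (2220 and 1176), erythroid (1690 and 168), neutrophil (1043 and 142) and monocyte/macrophage (241 and 73) classes. Of 14 chondrocyte markers 14 were at least 2-fold higher in their class than in the other cells, as were 10 of 11 osteoblast, 15 of 15 fibroblast, 11 of 11 B cell, 13 of 13 erythroid, 15 of 15 neutrophil and 12 of 12 monocyte/macrophage markers. The same marker lists had named the classes in the same cells, so these counts describe the names and are no separate check of them. Blood cells made up 92.9% and 61.2% of the kept cells although the sort was meant to leave them out. The smooth muscle (4 and 20 cells) and tenocyte (2 and 167 cells) classes had too few cells in library 1 to be fitted. Cells left without a name, 153 and 252 in the stroma and 637 and 211 among blood cells, entered no comparison.

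Levels are CPM, the UMIs that a gene drew per 1000000 UMIs of the same class in the same library. Pairs of values are given for library 1 first and library 2 second. Fold changes are log2 values fitted by edgeR to the summed counts of each class in each library, with p-values adjusted by the Benjamini-Hochberg method over all genes tested, and a change was called at an adjusted p under 0.05. The fit scales each sum by TMM, which sets the bulk of genes to no change. A fitted fold can therefore differ from the ratio of the CPM values printed beside it, as in comparisons with fibroblasts and between erythroid stages. Levels are relative to all RNA of a class, so a difference in CPM cannot be told apart from a change in the other transcripts of that class.

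The promoters of several members share a short sequence, ACGTG, a form of the core of sites bound by HIF and related bHLH factors. The other form of the HIF core, GCGTG, was not searched for. It occurs in the Pfkl and Pgam1 stretches below and, read on either strand, in the windows of Eno1. RefSeq windows ran from 250 bases before to 50 bases after each annotated start (build GRCm38.p6, all 10 members had a window). A gene counted if any of its windows held ACGTG on at least 1 strand. That held for Hk2, Aldoa, Pgk1, Pgam1, Pkm and Ldha, 6 of the 10 members, and for 21.8% of the 27025 genes with a window. Aldoa, Eno1, Pkm and Ldha have more than 1 window, and Aldoa, Pkm and Ldha also have a window without a match. Of all 32851 windows 19.6% held ACGTG. The 250 bases before the start are shown for Ldha, Pgk1 and Pgam1, which carry the motif, and for Pfkl, which has no match in its window and had the largest fitted rise of the 10 members in chondrocytes against fibroblasts. Of the 3 members with the largest rise in that comparison, Pfkl, Pgk1 and Eno1, only Pgk1 has ACGTG, while Pfkl and Eno1 hold the GCGTG form. Ldha, with 5 matches, lay below the members' median. A link between the motif and the size of the rise was not tested. Capitals mark ACGTG read on either strand (ACGTG or CACGT), and in Ldha the run CACGTG holds the motif on both strands at once, so that its 5 matches lie at 3 places.
Ldha, chr7:46845554-46845803, plus strand: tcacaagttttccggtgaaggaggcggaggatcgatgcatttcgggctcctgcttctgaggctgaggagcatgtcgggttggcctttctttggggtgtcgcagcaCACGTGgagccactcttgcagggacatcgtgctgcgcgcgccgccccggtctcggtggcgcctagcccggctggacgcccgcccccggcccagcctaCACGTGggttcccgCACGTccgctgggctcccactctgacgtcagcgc
Pgk1, chrX:106186850-106187099, plus strand: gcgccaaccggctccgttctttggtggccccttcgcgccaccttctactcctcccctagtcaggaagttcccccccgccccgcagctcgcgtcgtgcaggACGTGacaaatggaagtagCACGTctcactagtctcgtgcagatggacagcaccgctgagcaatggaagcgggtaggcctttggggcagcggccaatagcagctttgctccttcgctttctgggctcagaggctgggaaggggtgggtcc
Pgam1, chr19:41911621-41911870, plus strand: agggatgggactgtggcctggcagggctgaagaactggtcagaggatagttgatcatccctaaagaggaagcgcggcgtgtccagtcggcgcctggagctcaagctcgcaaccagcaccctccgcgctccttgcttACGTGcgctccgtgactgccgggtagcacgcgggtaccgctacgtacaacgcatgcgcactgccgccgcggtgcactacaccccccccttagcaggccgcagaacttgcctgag
Pfkl, chr10:78009808-78010057, minus strand: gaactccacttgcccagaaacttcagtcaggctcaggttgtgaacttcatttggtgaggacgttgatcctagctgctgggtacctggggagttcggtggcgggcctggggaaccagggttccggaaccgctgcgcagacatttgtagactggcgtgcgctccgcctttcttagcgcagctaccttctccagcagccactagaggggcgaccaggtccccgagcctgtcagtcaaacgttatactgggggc
A match describes the letters of the window and is no evidence of binding in these cells, and the absence of a match in Gpi1, Pfkl, Tpi1 and Eno1 says only that these letters are not in the windows searched.

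Summed over the 10 members, transcripts were highest in the skeletal muscle class, next in chondrocytes, and lowest in erythroid cells. Muscle cells held 16684 and 21869.5 CPM in libraries 1 and 2, of which Aldoa alone made up 11163 and 14126 CPM. Chondrocytes followed with 8141 and 8511 CPM. Both of their values lay above both values of every other class but muscle. Neutrophils stood at 4108 and 4092 CPM and monocytes/macrophages at 3033 and 2992 CPM, each apart from the class ranked below it. The lower classes were fibroblasts (1896 and 2014 CPM), Lepr+ stromal cells (1350.3 and 1878 CPM), B cells (1495 and 1498 CPM) and osteoblasts (1288 and 1610.2 CPM). Ordered by mean, the values of Lepr+ cells overlapped those of B cells and those of B cells overlapped those of osteoblasts, so that their order was not resolved. Erythroid cells came last with 1041 and 1245 CPM, below both osteoblast values.

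**Figure D1:**
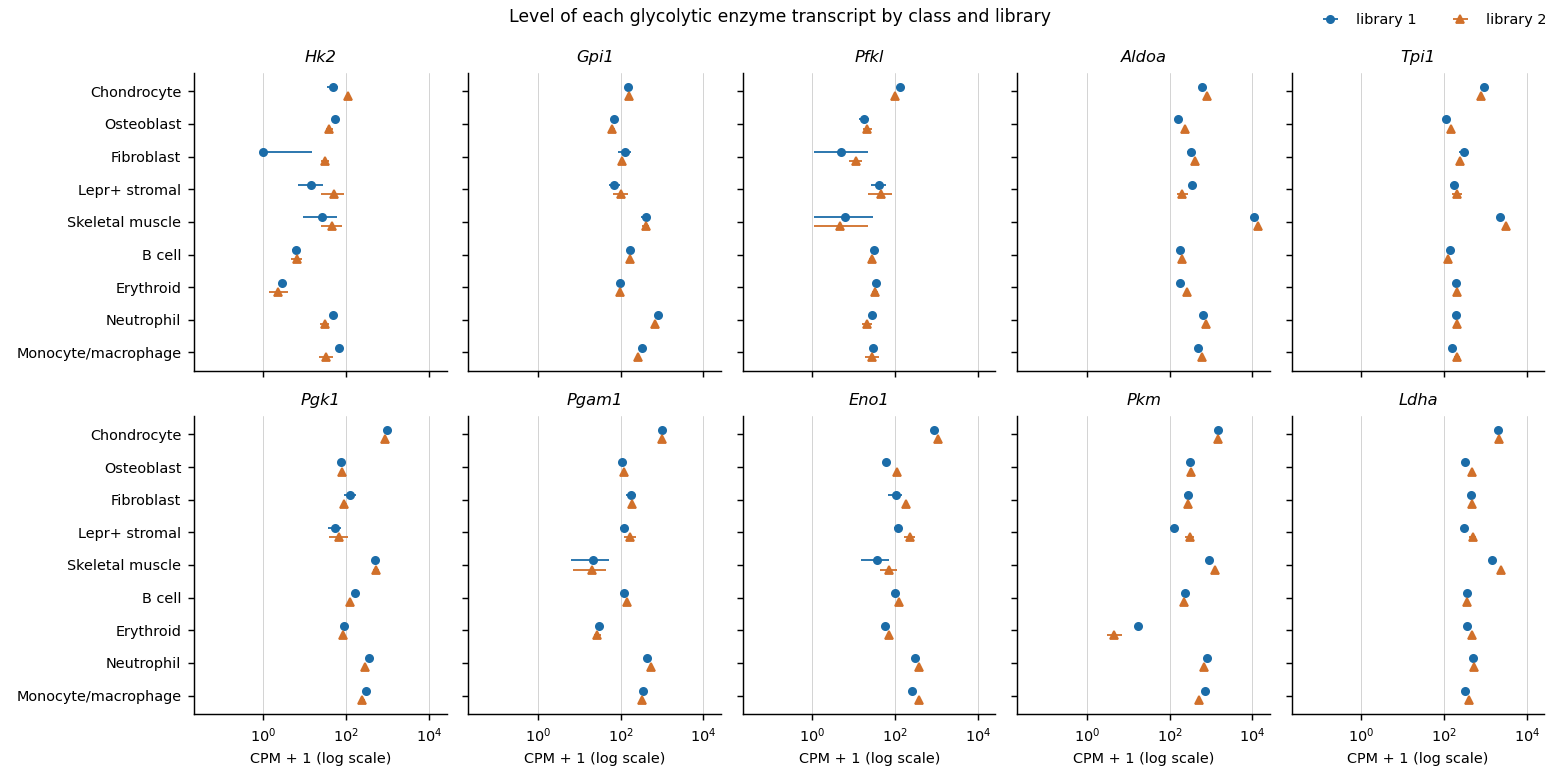
CPM + 1 on a log axis for each of the 10 members in the 9 fitted classes. Circles are library 1, triangles are library 2 and bars are exact Poisson 95% intervals that cover counting error only. Chondrocytes reach 959 and 849 CPM of Pgk1, above every other class, whereas Aldoa peaks in skeletal muscle and Gpi1 in neutrophils (812 and 661 CPM).

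Counted per cell instead of as CPM, the order changed, and the classes also differed in the UMIs captured per cell. A chondrocyte held 274 and 256 UMIs of the 10 members on average, at median depths of 34081 and 30323 UMIs. Skeletal muscle cells held 47.5 and 91.7, at median depths of only 1948 and 2552. Erythroid cells carried on average 27.5 and 30.5 member UMIs per cell against 9.62 and 8.33 in B cells, although their CPM was the lower of the pair. By stage, described below, early erythroid cells (436 and 44) held 85.9 and 97.5 per cell. Late erythroid cells (1001 and 93) held 2.08 and 1.57, fewer than the B cell average. As class averages, neutrophils (64.5 and 68.7) and monocytes/macrophages (39.7 and 36.1) lay above fibroblasts (24.9 and 18.9) on this scale too, and the monocyte/macrophage values overlapped those of osteoblasts (36.5 and 28.5). Immature neutrophils held 144.9 and 150.7 per cell. Mature neutrophils (343 and 42 cells) held 17.9 and 11.9, below fibroblasts in both libraries.

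Chondrocytes held more of nearly every member than the other bone-surface classes. Against fibroblasts 9 of the 10 members were higher and none lower, beside 20.5% of all 13512 genes called in either direction (9.09% higher and 11.4% lower), and the median log2 fold change of the members was 2.72 against 0.00 over all genes. Against osteoblasts 9 were again higher and none lower, beside 10.6% of all genes (5.31% higher and 5.27% lower), with a median of 2.36 against -0.05. The summed level was 4.29-fold (95% interval 3.92 to 4.71) that of fibroblasts in library 1 and 4.23-fold (95% interval 4.11 to 4.35) in library 2, and 6.32-fold (95% interval 6.06 to 6.59) and 5.29-fold (95% interval 5.13 to 5.45) that of osteoblasts. Chondrocytes enter both comparisons, which are therefore not independent of each other. The 20 fibroblasts of library 1 held 18862 CPM of 15 summed neutrophil markers (14 of them with a UMI), against 41.5 CPM in library 2, 484 and 71.0 CPM in chondrocytes, 939 and 56.2 CPM in osteoblasts and 261309 and 262130 CPM in neutrophils themselves. Their part in the fibroblast values was not tested, and in library 2 alone the 9 called members were higher in chondrocytes by 1.30 (Aldoa) to 3.59 (Pfkl) on the log2 scale.

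Among the ATP-spending steps, Pfkl, the liver-type phosphofructokinase that commits the sugar to glycolysis, differed most from fibroblasts. Its level was 132 and 98.1 CPM in chondrocytes, 17 and 20.3 CPM in osteoblasts and 3.8 and 10.1 CPM in fibroblasts, and no 2 of these classes overlapped. The fitted log2 difference from fibroblasts was 4.09 ± 0.41 (SE), adjusted p = 9.1e-06, and from osteoblasts 2.45 ± 0.36 (SE), adjusted p = 2.8e-04. The fibroblast values rest on 1 and 28 UMIs. Hk2, an inducible hexokinase that traps glucose in the cell, stood at 46.2 and 112 CPM in chondrocytes, 53.6 and 38.6 CPM in osteoblasts and 0 and 29.6 CPM in fibroblasts. It was called against fibroblasts (2.39 ± 0.77 (SE), adjusted p = 0.04) but not against osteoblasts (0.67 ± 0.72 (SE), adjusted p = 0.66), whose values lay on either side of the library 1 chondrocyte value. Fibroblasts of library 1 had 0 Hk2 UMIs, which allows up to 11.4 CPM, and the call was lost at a clustering resolution of 0.4 (adjusted p = 0.057).

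Gpi1, glucose-6-phosphate isomerase, was the member with the smallest difference between chondrocytes and fibroblasts, with 148 and 157 CPM against 125 and 109 in fibroblasts and 67.4 and 61.6 in osteoblasts. The difference from osteoblasts was called (1.09 ± 0.29 (SE), adjusted p = 0.022) unless the filter on low genes was left out (0.052). That from fibroblasts was not (0.84 ± 0.29 (SE), adjusted p = 0.051), but it passed under 6 of the 10 alternatives with a test, among them the library as a block (adjusted p = 0.02). Aldoa, the aldolase that cuts the 6-carbon sugar in 2, measured 612 and 818 CPM in chondrocytes, 327 and 415 CPM in fibroblasts and 164 and 236 CPM in osteoblasts. Both differences were called, at 1.37 ± 0.39 (SE), adjusted p = 0.022 from fibroblasts and 1.70 ± 0.40 (SE), adjusted p = 0.011 from osteoblasts. The summed level of 11 skeletal muscle markers was 227 and 849 CPM in chondrocytes, 34.2 and 296 in fibroblasts and 23.1 and 255 in osteoblasts, against 235548 and 228695 in the muscle class. Within each library it ranked chondrocytes, fibroblasts and osteoblasts as Aldoa did. Across libraries it did not, since chondrocytes of library 1 lay below fibroblasts and osteoblasts of library 2. The part of these markers in the result was not tested.

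Tpi1, triosephosphate isomerase, which lets both products of aldolase continue, was at 907 and 797 CPM in chondrocytes, 296 and 246 CPM in fibroblasts and 111 and 144 CPM in osteoblasts. Chondrocytes lay above the others in both libraries, by 2.11 ± 0.32 (SE), adjusted p = 3.4e-04 from fibroblasts and 2.58 ± 0.32 (SE), adjusted p = 1.0e-04 from osteoblasts.

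In the later part of the pathway, Pgk1, phosphoglycerate kinase, which makes the first ATP of the pathway, reached 959 and 849 CPM in chondrocytes, against 125 and 90.1 CPM in fibroblasts and 74.7 and 78.5 CPM in osteoblasts. The chondrocyte values lay far above the other 4, and the log2 difference was 3.55 ± 0.31 (SE), adjusted p = 5.9e-06 from fibroblasts and 3.40 ± 0.31 (SE), adjusted p = 7.1e-06 from osteoblasts. Pgam1, a phosphoglycerate mutase, measured 998 and 984 CPM in chondrocytes, 179 and 186 in fibroblasts and 107 and 122 in osteoblasts, with log2 differences of 2.87 ± 0.31 (SE), adjusted p = 2.7e-05 and 2.96 ± 0.31 (SE), adjusted p = 2.1e-05. Eno1, the ubiquitous enolase, measured 849 and 1062 CPM in chondrocytes, 103 and 178 in fibroblasts and 59.7 and 113 in osteoblasts, with log2 differences of 3.14 ± 0.49 (SE), adjusted p = 4.6e-04 and 3.32 ± 0.49 (SE), adjusted p = 4.1e-04. In each of these genes both chondrocyte values lay above all fibroblast and osteoblast values, whereas the Eno1 values of fibroblasts and osteoblasts overlapped. Eno1 shares near-identical sequence with the retrogene Eno1b, which drew 175 and 111 UMIs over all kept cells and was itself higher in chondrocytes than in fibroblasts (2.44 ± 0.79 (SE), adjusted p = 0.038), so reads may be split between both and each value is uncertain to that extent.

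Pkm, pyruvate kinase, whose M1 and M2 splice forms a gene count cannot separate, was at 1459.5 and 1449.7 CPM in chondrocytes, 285 and 283 in fibroblasts and 314 and 329 in osteoblasts. The log2 difference was 2.80 ± 0.55 (SE), adjusted p = 0.0024 from fibroblasts and 2.02 ± 0.54 (SE), adjusted p = 0.023 from osteoblasts, the latter lost at a clustering resolution of 0.4 (0.053). Ldha, the lactate dehydrogenase subunit that favours lactate formation, was at 2030.3 and 2183 CPM in chondrocytes, 452 and 467 in fibroblasts and 320.2 and 467 in osteoblasts, with log2 differences of 2.64 ± 0.39 (SE), adjusted p = 2.9e-04 and 2.27 ± 0.38 (SE), adjusted p = 0.001. Gapdh, the dehydrogenase between Tpi1 and Pgk1 and no member here, moved the same way with 2158 and 2092 CPM in chondrocytes and 722 and 800.0 in fibroblasts (1.91 ± 0.35 (SE), adjusted p = 0.0013).

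**Figure D2:**
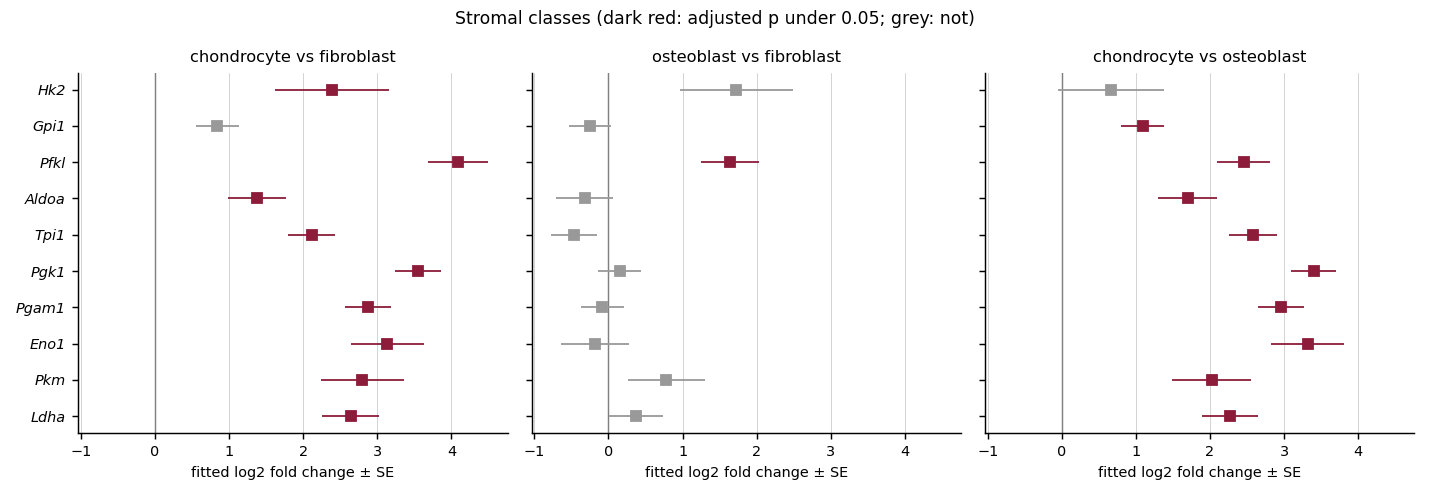
Fitted log2 fold change (squares) with its standard error (bars) for the 10 members in the 3 stromal comparisons, dark red where the adjusted p is under 0.05 and grey otherwise. The 9 called chondrocyte differences lie between 1.37 (Aldoa) and 4.09 (Pfkl) against fibroblasts, whereas between osteoblasts and fibroblasts Pfkl alone was called (1.64).

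Between osteoblasts and fibroblasts only 1 member was called in the fit. Pfkl was higher in osteoblasts (1.64 ± 0.39 (SE), adjusted p = 0.0086), and the other 9 members were not called, beside 16.2% of all genes (6.84% higher and 9.32% lower), with a median of 0.03 against 0.01 over all genes. Hk2 had the largest fitted difference but was not called (1.72 ± 0.76 (SE), adjusted p = 0.15), with 53.6 and 38.6 CPM in osteoblasts, both above the fibroblast values of 0 and 29.6 CPM. The remaining 8 members had fitted differences from -0.47 (Tpi1) to 0.78 (Pkm), with standard errors of 0.29 to 0.52. Differences of about that size could have been missed. As CPM, without the scaling of the fit, Gpi1, Aldoa, Tpi1, Pgk1 and Pgam1 lay lower in osteoblasts in both libraries, without overlap. The summed members did too, at 1288 and 1610 CPM against 1896 and 2014 CPM in fibroblasts. Pfkl, Hk2 and Pkm lay higher in osteoblasts, and the values of Eno1 and Ldha overlapped. The phosphofructokinase of fibroblasts was mainly the platelet type, Pfkp, which was lower in osteoblasts (-3.15 ± 0.50 (SE), adjusted p = 7.8e-04).

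Of the 153 and 252 stromal cells that could not be named, 67 and 74 formed a cluster led by Col10a1, a collagen of hypertrophic cartilage, with Mgp and Aldh1a3. This cluster held 2167 and 3129 CPM of the 10 members, between the fibroblast and chondrocyte values. It entered no test.

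Among blood cells, neutrophils held more than B cells of 9 of the 10 members and less of none, beside 21.3% of all genes called (12.3% higher and 9.01% lower), with a median log2 fold change of 2.24 against -0.04 over all genes. Monocytes/macrophages held more of 6 and less of none, beside 18.5% of all genes (12.1% higher and 6.47% lower) and with a median of 1.203 against -0.08. Erythroid cells held more of 1 and less of 2, beside 30% of all genes (13.3% higher and 16.7% lower) and with a median of -0.27 against 0.02. B cells are the reference of all 3 comparisons, which therefore share their values. The sums of every class weigh each cell by its UMIs. The 462 and 246 cycling cells described below held 16398 and 6481 of the 21355 and 9792 member UMIs of the B cell class. The 436 and 44 early erythroid cells held 37441 and 4289 of the 46413 and 5121 of their class. The 330 and 49 immature neutrophils held 47817 and 7386 of the 67318 and 9761 of theirs. The part of this in the 3 comparisons was not tested.

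In neutrophils the largest fitted differences fell on Hk2 and Gpi1. Gpi1 stood at 812 and 661 CPM, 330.1 and 264 CPM in monocytes/macrophages, 171 and 166 CPM in B cells and 94.3 and 94.6 CPM in erythroid cells. Neutrophils had the highest Gpi1 level of all classes, and their log2 difference from B cells was 2.70 ± 0.30 (SE), adjusted p = 2.1e-05. Hk2 was at 46.9 and 29.3 CPM in neutrophils and 67.2 and 31.8 CPM in monocytes/macrophages, against 5.04 and 5.35 CPM in B cells and 1.88 and 1.22 CPM in erythroid cells. All 4 myeloid values were above those of B cells and erythroid cells, by 3.45 ± 0.79 (SE), adjusted p = 0.0047 and 3.33 ± 0.79 (SE), adjusted p = 0.0072 from B cells. As a class sum, Pfkl ranged narrowly across the blood classes. It ran from 20.1 CPM in neutrophils of library 2 to 34.4 CPM in erythroid cells of library 1. By stage the range was wider, with 8.11 and 10.5 CPM in late and 47.9 and 38.0 CPM in early erythroid cells. Pfkl was the member not called in neutrophils (0.31 ± 0.33 (SE), adjusted p = 0.58).

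Aldoa measured 631 and 740.3 CPM in neutrophils and 494 and 598 CPM in monocytes/macrophages, against 176 and 194 CPM in B cells, and both differences were called (2.46 ± 0.41 (SE), adjusted p = 4.0e-04, and 1.64 ± 0.40 (SE), adjusted p = 0.0082). The muscle marker sum was 51.3 and 24.7 CPM in neutrophils, 107 and 79.4 in monocytes/macrophages and 91.5 and 90.9 in B cells, lower in neutrophils than in B cells in both libraries. Pgam1 was at 431 and 554 CPM in neutrophils, 354 and 329 in monocytes/macrophages and 122 and 142 in B cells (2.48 ± 0.30 (SE), adjusted p = 4.3e-05 in neutrophils, and 1.45 ± 0.29 (SE), adjusted p = 0.0024 in monocytes/macrophages). In mature neutrophils alone Pgam1 stood at 120 and 48.7 CPM, not above the B cell values. Eno1 and Pgk1 followed the same order, with log2 differences of 2.23 ± 0.47 and 1.68 ± 0.29 in neutrophils and 1.65 ± 0.46 and 0.96 ± 0.28 in monocytes/macrophages.

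Pkm reached 796 and 682 CPM in neutrophils and 735 and 512 CPM in monocytes/macrophages, against 232 and 229 CPM in B cells. The neutrophil difference was called (2.25 ± 0.54 (SE), adjusted p = 0.0065), and that of monocytes/macrophages was not (1.51 ± 0.53 (SE), adjusted p = 0.06) but passed with the library as a block (adjusted p = 0.033). Apart from Pfkl, the myeloid classes were least separated from B cells by Tpi1 and Ldha. By stage, Tpi1 stood at 248 and 273 CPM in immature neutrophils. It stood at 75.4 and 57.1 CPM in a neutrophil cluster without a stage and at 46.8 and 48.7 CPM in mature neutrophils. The values of the last-named clusters lay below both Tpi1 values of the B cell class. Ldha was at 513 and 539.9 CPM in neutrophils, 357 and 368 in B cells and 313 and 394 in monocytes/macrophages, whose values enclosed those of B cells. Of the 5103 and 2406 Ldha UMIs of B cells, cycling cells held 4449 and 1875, and resting cells stood at 77.9 and 97.3 CPM. The Ldha call in neutrophils (1.11 ± 0.37 (SE), adjusted p = 0.042) was lost under 3 alternatives (adjusted p from 0.056 to 0.092) and the Tpi1 call (1.195 ± 0.31 (SE), adjusted p = 0.01) at a clustering resolution of 1.2 (0.12). In monocytes/macrophages the calls of Gpi1 and Pgk1 were each lost under 4 alternatives (adjusted p from 0.052 to 0.17), and the call count ran from 4 to 8. Neutrophil markers summed to 4367 and 2267 CPM in monocytes/macrophages and 1079 and 63.0 CPM in B cells, and their part in these differences was not tested.

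**Figure D3:**
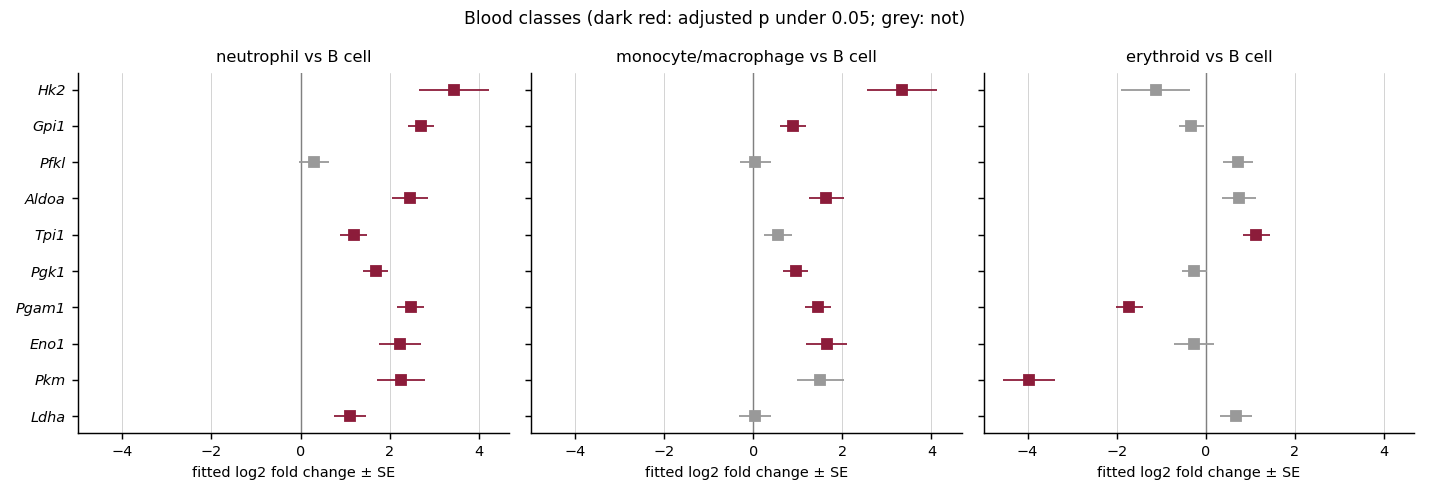
Fitted log2 fold change (squares) with its standard error (bars) for the 10 members in 3 blood classes against B cells, dark red where the adjusted p is under 0.05 and grey otherwise. Neutrophil values are above 0 throughout, from 0.31 (Pfkl, not called) to 3.45 (Hk2), whereas erythroid values run from -3.97 (Pkm) to 1.13 (Tpi1).

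Erythroid cells were set apart by Pkm, which measured 16 and 3.65 CPM against 232 and 229 CPM in B cells. It was the lowest Pkm level of all classes and -3.97 ± 0.58 (SE), adjusted p = 1.5e-04 on the log2 scale. Their own pyruvate kinase gene, Pklr, the liver and red cell type, was at 34.8 and 27.5 CPM against 0.21 and 0 CPM in B cells (8.07 ± 0.84 (SE), adjusted p = 2.9e-05). Pgam1 was also lower, at 29.8 and 26.3 CPM against 122 and 142 CPM (-1.72 ± 0.29 (SE), adjusted p = 4.6e-04), and Tpi1 was higher, at 191 and 211 CPM against 138 and 122 CPM (1.13 ± 0.31 (SE), adjusted p = 0.011). By stage, Tpi1 stood at 292 and 310 CPM in early and 21.8 and 23.8 CPM in late erythroid cells, the late values below both B cell values. Ldha was at 352 and 463 CPM and not called (0.67 ± 0.36 (SE), adjusted p = 0.19). It passed with the 5% of cells with the most UMIs left out (1.55, adjusted p = 0.0038), and Pfkl (0.72 ± 0.33 (SE), adjusted p = 0.12) passed then too (0.032) and with the library as a block (0.045). The number of members called was then 5 and 4.

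As a mean over the 3 stromal classes, 5 members were higher and 1 lower than across the 4 blood classes, each class weighing the same. Beside this, 59.2% of all genes were called in this comparison (31.8% higher and 27.5% lower), a share near that of the members. Most genes were thus called here. Gpi1 was lower (-1.201 ± 0.16 (SE), adjusted p = 9.0e-06), with 67.4 and 61.6 CPM in osteoblasts at the low end and the neutrophil values at the high end. Hk2 (1.93 ± 0.40 (SE), adjusted p = 6.5e-04), Tpi1 (0.82 ± 0.16 (SE), adjusted p = 4.8e-04), Pgam1 (0.81 ± 0.15 (SE), adjusted p = 3.1e-04), Pkm (1.498 ± 0.28 (SE), adjusted p = 2.6e-04) and Ldha (0.85 ± 0.20 (SE), adjusted p = 0.0015) were higher. Library 1 alone gave the opposite sign for Hk2, with its 0 UMIs in fibroblasts. A difference of means need not hold for each class. For Pgam1 and Pkm, fibroblasts and osteoblasts lay below neutrophils and monocytes/macrophages in both libraries, while chondrocytes lay above them. Erythroid cells had the lowest Pkm level of all classes. Eno1 was not called (0.49 ± 0.24 (SE), adjusted p = 0.094) and passed with the library as a block (0.015).

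Which isoenzyme carried a step differed between classes. These shares count 3′ UMIs, 1 per captured transcript, and are not divided by length. Of the hexokinase UMIs, Hk1, the constitutive form, made up 96.1% and 97.8% in erythroid cells and 68.4% and 76.8% in B cells, and Hk1 was higher in erythroid cells than in B cells (2.67 ± 0.51 (SE), adjusted p = 8.5e-04). Hk3, a form found in myeloid cells, made up 60.9% and 61.9% in neutrophils. Hk2 made up 73.7% and 76% in osteoblasts and 51.9% and 69.6% in chondrocytes. So the hexokinase among the members was the main one in osteoblasts and a minor one in erythroid cells (2.3% and 2.16%).

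Pfkl made up 71.9% and 65.7% of the phosphofructokinase UMIs in chondrocytes but only 4% and 17.9% in fibroblasts, where Pfkp held 80% and 60.9%, though the fibroblast shares of library 1 rest on 25 UMIs. Pfkm, the muscle form, held 42.5% and 40.4% in erythroid cells and was higher there than in B cells (3.77 ± 0.34 (SE), adjusted p = 3.7e-06). Ldha made up 98.9% and 98.8% of the UMIs of Ldha and Ldhb in chondrocytes and 99.7% and 99.4% in erythroid cells. Ldhb, the heart-type subunit, was larger in share in neutrophils, where Ldha held 92.8% and 90.6%, and in Lepr+ cells, where Ldha held 72.3% and 87.6%. Ldhb was higher than in B cells in neutrophils (4.86 ± 0.49 (SE), adjusted p = 1.2e-05) and monocytes/macrophages (4.16 ± 0.48 (SE), adjusted p = 3.8e-05). In osteoblasts Eno1 held 69.7% and 72.7% of the UMIs of Eno1, Eno2 and Eno3, with Eno1b left out, against 99.5% and 98.5% in chondrocytes, and Eno3, the muscle enolase, was higher in osteoblasts than in fibroblasts (2.43 ± 0.54 (SE), adjusted p = 0.0065).

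In the skeletal muscle class other genes held most UMIs of 3 of the steps. Pfkl held 1.54% and 1.33% of its phosphofructokinase UMIs beside Pfkm, Eno1 held 0.767% and 1.41% of its enolase UMIs (Eno1b left out), and Pgam1 held 0.521% and 0.446% of its phosphoglycerate mutase UMIs beside Pgam2. At 35.1 and 71.9 CPM of Eno1 and 20.1 and 18.9 CPM of Pgam1, muscle was the lowest of the 9 classes for Pgam1. Its summed member level therefore leaves out most transcripts of those steps.

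**Figure D4:**
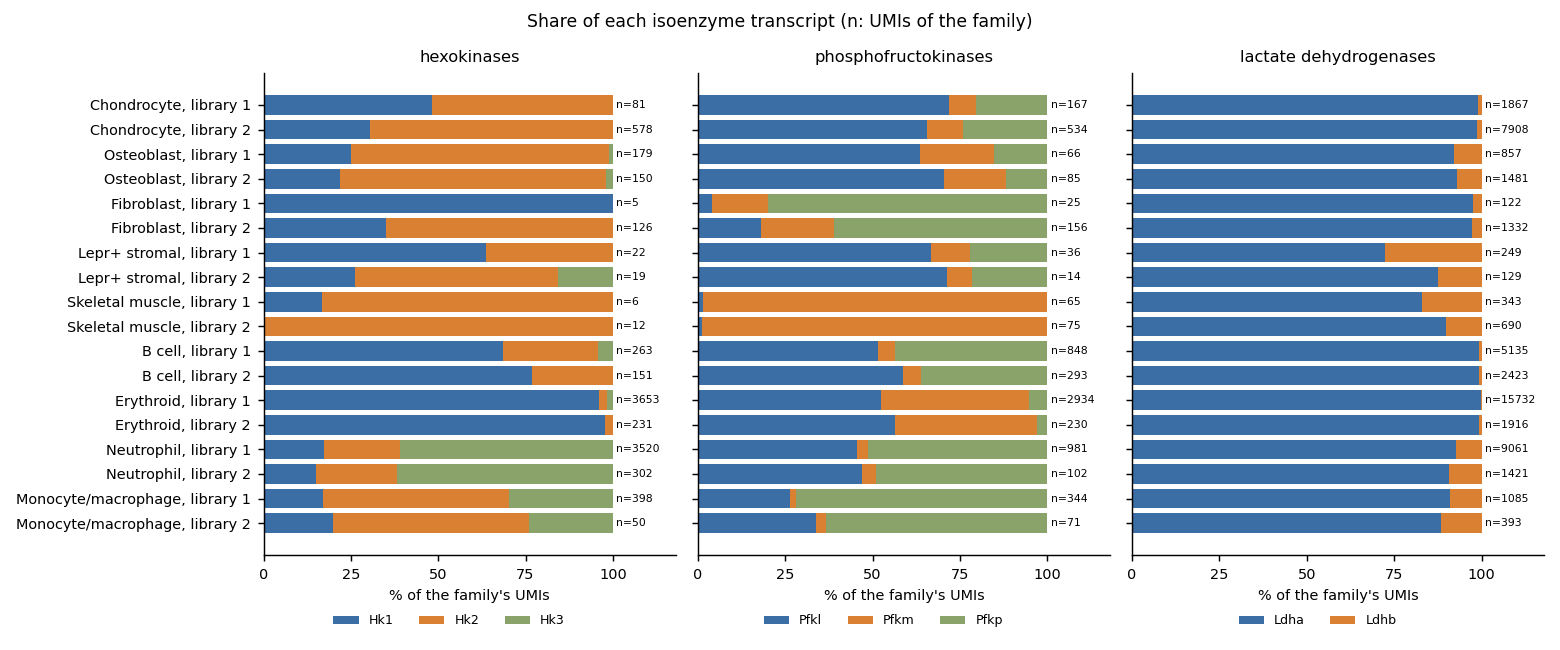
Share of each isoenzyme gene in the UMIs of the hexokinase, phosphofructokinase and lactate dehydrogenase families, 1 bar per class and library, with n the number of UMIs of the family in that bar. Hk1 fills 96.1% and 97.8% of the erythroid bars and Hk3 60.9% and 61.9% of the neutrophil bars, and the hexokinase and phosphofructokinase bars of fibroblasts in library 1 rest on 5 and 25 UMIs.

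Within the erythroid lineage, late cells held far less of the members than early cells. Of the 10 members 8 were lower and 1 higher in the late stage, beside 28.8% of 13203 genes called (14.6% higher and 14.2% lower), with a median log2 fold change of -1.96 against 0.00 over all genes. The early stage (436 and 44 cells) was led by Car1 and the late stage (1001 and 93 cells) joined clusters led by Hemgn and by Bpgm. An erythroid cluster without a stage (253 and 31 cells) was on neither side of the comparison and held 745 and 888 CPM of the summed members. Summed, the members fell from 1609 and 1873 CPM to 173 and 139 CPM, and from 85.9 and 97.5 to 2.08 and 1.57 UMIs per cell. Median depth went from 57353 and 56878 UMIs per cell to 10941 and 10362.

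Ldha fell most, from 568 and 720.0 CPM in early to 25.2 and 23.8 CPM in late cells, -3.74 ± 0.41 (SE), adjusted p = 9.1e-07 on the log2 scale. Tpi1 went from 292 and 309.6 to 21.8 and 23.8 CPM (-2.75 ± 0.32 (SE), adjusted p = 1.9e-06), and Aldoa from 284 and 392 to 32.2 and 30.5 CPM (-2.46 ± 0.39 (SE), adjusted p = 5.3e-05). In these 3 genes both late values were under both early values by a wide margin. The falls of Gpi1, Pgk1, Eno1, Pgam1 and Pfkl lay between -2.14 (Gpi1) and -1.27 (Pfkl). Of these, Pfkl and Pgam1 lost the call without the filter on low genes (adjusted p = 0.091 and 0.11), and Pfkl at a resolution of 1.2 (0.083). Hk2, at 3 CPM or less in both stages, was not called (0.14 ± 0.82 (SE), adjusted p = 0.94).

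Globin transcripts made up 44.5% and 46.1% of the late UMIs against 0.386% and 0.0591% of the early ones. As CPM of non-globin UMIs the summed members went from 1615 and 1874 to 311 and 258. The summed level of 10 cycling markers was 1965 and 1426 CPM in early and 5131 and 5825 CPM in late cells, and the B cell markers summed to 93.4 and 11.4 CPM in early and 570 and 609 CPM in late cells. Their part in the result was not tested. Pkm was called higher in late cells (1.74 ± 0.55 (SE), adjusted p = 0.02) at 23.3 and 5.72 CPM against 14.8 and 2.62. The library 2 values rest on 6 UMIs in each stage, and the call was lost at resolutions of 0.4 and 1.2 (adjusted p = 0.15 and 0.17).

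Bpgm, which makes 2,3-bisphosphoglycerate, the red cell regulator of oxygen release, moved against the members. It rose from 28.3 and 18.3 CPM in early to 734 and 477 CPM in late cells (5.67 ± 0.98 (SE), adjusted p = 1.2e-04), 25.9-fold (95% interval 23.9 to 28.1) in library 1 and 26-fold (95% interval 19 to 36.6) in library 2. Most of it lay in the late cluster led by Bpgm, Tmcc2 and Slfn14 (455 and 39 cells), at 2007 and 1284 CPM. Clustering left Bpgm out of the genes used, but the cluster's leading genes were read from the same cells.

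Cycling cells of the B lineage held more of 6 members than resting ones and less of none, beside 15.7% of all genes (11.1% higher and 4.63% lower), with a median of 1.90 against 0.00. The cycling stage (462 and 246 cells) was named from cycling genes and the resting stage (1300 and 505 cells) from small pre-B markers. Cycling genes summed to 2799 and 1982 CPM in the cycling and 77 and 51.7 CPM in the resting stage. Cycling and the step of B cell development cannot be told apart here. Summed members stood at 2019 and 2129 CPM in cycling and 686 and 739.8 CPM in resting cells. Ldha, at 548 and 616 against 77.9 and 97.3 CPM (2.94 ± 0.39 (SE), adjusted p = 9.2e-06), and Tpi1, at 211 and 211 against 32.6 and 40.2 CPM (2.74 ± 0.32 (SE), adjusted p = 1.8e-06), differed most, with no overlap. Pgam1 (2.21 ± 0.42 (SE), adjusted p = 5.5e-04), Pgk1 (2.05 ± 0.31 (SE), adjusted p = 4.6e-05), Eno1 (2.02 ± 0.44 (SE), adjusted p = 0.002) and Pkm (1.79 ± 0.54 (SE), adjusted p = 0.023) followed. Aldoa did not follow, at 163 and 164 against 174 and 184 CPM (0.07 ± 0.36 (SE), adjusted p = 0.98), and Gpi1, Hk2 and Pfkl were not called either, Pfkl passing with the library as a block (0.03). Outside this comparison, mature B cells (265 and 216 cells) held summed members at 1116 and 1218 CPM and Aldoa at 320 and 400 CPM. A B-lineage cluster without a stage (193 and 209 cells) held them at 951 and 1071 CPM and at 138 and 141 CPM.

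Erythroid markers summed to 2853 and 6408 CPM in cycling and 1798 and 551 CPM in resting cells, and their part in the result was not tested. Within the cycling stage the levels were uneven. A cluster led by Bfsp2 and Igll1, the latter part of the pre-B receptor, held 719 and 825 CPM of Ldha, and the other cycling cluster 149 and 204 CPM. Median depth was 11616 and 8292 UMIs per cell in cycling and 3092 and 3165 in resting cells. With the 5% of cells with the most UMIs left out, the calls of Pgam1 and Pkm were lost (adjusted p = 0.054 and 0.28), and Pkm was also lost at a resolution of 1.2 (0.070).

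Mature neutrophils held less of 2 members than immature ones and more of none, beside 35.6% of all genes (11.7% higher and 23.9% lower), and the median over all genes was itself shifted to -0.60 while that of the members was -0.24. Tpi1 stood at 248 and 273 CPM in immature and 46.8 and 48.7 CPM in mature cells (-2.33 ± 0.32 (SE), adjusted p = 7.3e-06). Pgam1 stood at 503 and 683 against 120.3 and 48.7 CPM (-2.52 ± 0.43 (SE), adjusted p = 6.5e-05). Both lay below the shift of all genes, with no overlap between stages, but the Pgam1 call was lost at resolutions of 0.4 and 1.2 (adjusted p = 0.11 and 0.24). The other 8 members were not called, and Gpi1, Pfkl, Aldoa, Eno1 and Ldha changed sign with the size factors used. The neutrophil cluster without a stage (370 and 51 cells) was on neither side of the comparison. It held 4001 and 3696 CPM of the summed members and, at 67.6 and 45.3 CPM, more Hk2 than either stage. Cycling markers summed to 2273 and 1813 CPM in immature and 142 and 108 CPM in mature cells, and median depth was 29098 and 34497 against 4393 and 3564 UMIs per cell. Erythroid markers, 13 in number, summed to 7663 and 203 CPM in immature and 44006 and 503 CPM in mature cells. The part of all these in the result was not tested. Ldhb fell with maturity (-4.05 ± 0.67 (SE), adjusted p = 3.1e-05), whereas the lactate exporter Slc16a3 rose (4.02 ± 0.63 (SE), adjusted p = 1.9e-05).

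**Figure D5:**
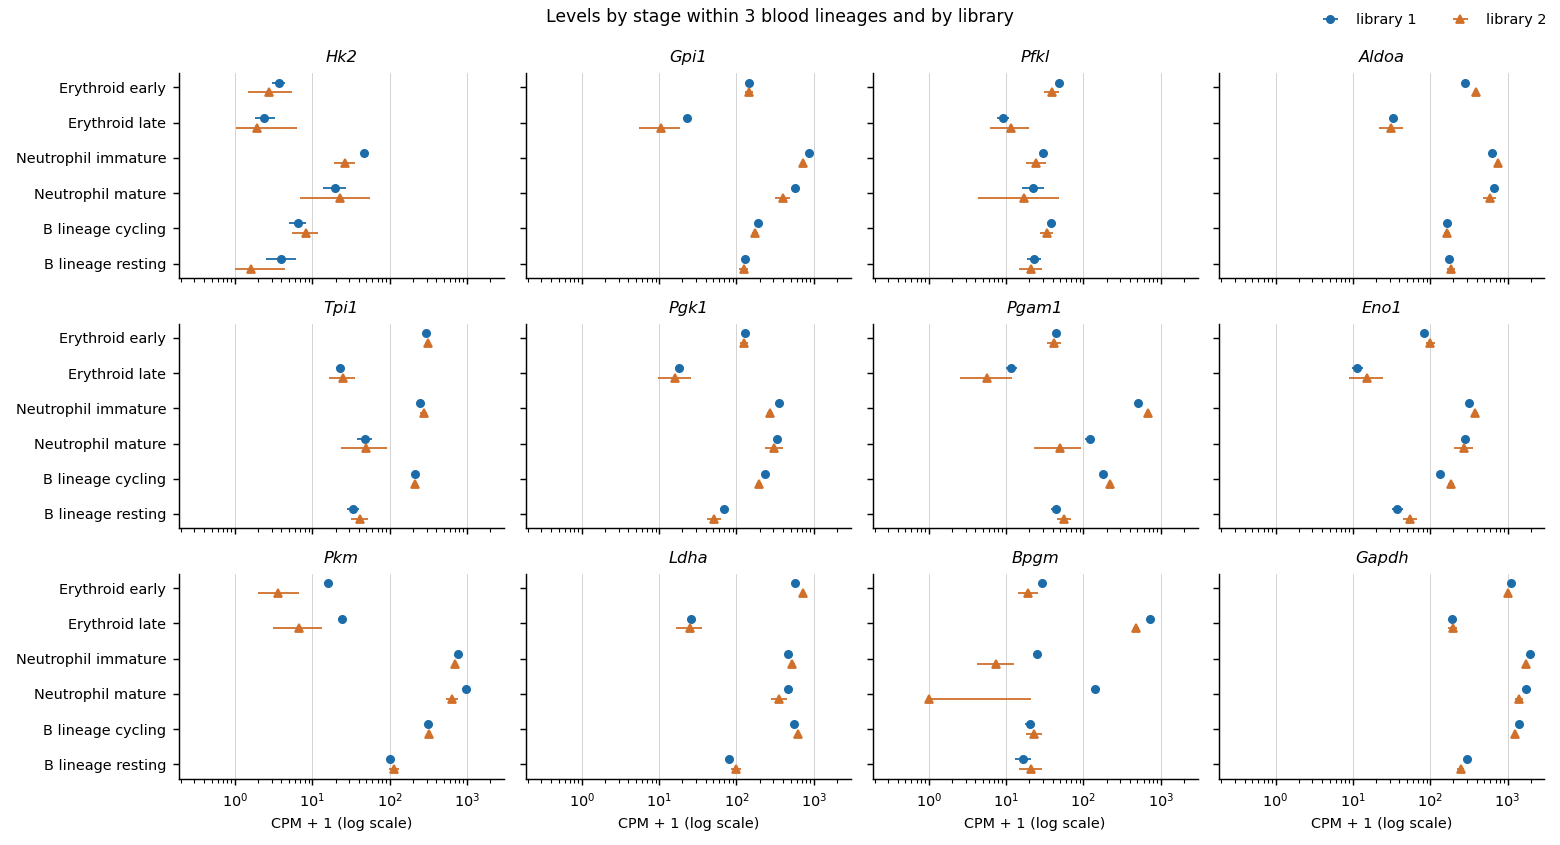
CPM + 1 on a log axis for the 10 members, Bpgm and Gapdh in 2 stages of each of 3 blood lineages. Circles are library 1, triangles are library 2 and bars are exact Poisson 95% intervals for counting error only. Ldha falls from 568 and 720.0 CPM in early to 25.2 and 23.8 CPM in late erythroid cells while Bpgm rises.

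Genes around the pathway were read as 6 lists in the same fits, against shares of all genes called of 20.5% in chondrocytes against fibroblasts, 10.6% in chondrocytes against osteoblasts, 21.3% in neutrophils and 30% in erythroid cells. Of 11 glucose and lactate carriers, 3 were higher and none lower in chondrocytes than in fibroblasts, with a median log2 fold change of 0.50, a share near the 20.5% of all genes called there. Slc2a1, the basal glucose carrier GLUT1, stood at 99 and 92 CPM in chondrocytes and 7.6 and 7.21 CPM in fibroblasts (4.06 ± 0.52 (SE), adjusted p = 1.3e-04), and Slc16a3, which exports lactate, differed by 4.27 ± 0.71 (SE), adjusted p = 5.5e-04. Neutrophils had 3 carriers higher and 1 lower than B cells, among them Slc16a3 (8.31 ± 0.84 (SE), adjusted p = 9.4e-06), and erythroid cells 4 higher and 2 lower, with Slc2a1 at 0.516 and 0.973 against 10.6 and 9.64 CPM (-3.43 ± 0.51 (SE), adjusted p = 1.7e-04).

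Of 20 other genes, mostly isoenzymes of the same steps, 13 were tested, and 4 were higher and 1 lower in chondrocytes than in fibroblasts, with a median of 0.69. The list also holds Gapdh, whose step no member carries out, and the retrogene Eno1b, both among the 4. In neutrophils 7 of the 13 were higher than in B cells and none lower. A list of 24 genes of the response to low oxygen outside glycolysis also held HIF subunits and oxygen sensors. Of these 24 genes 22 were tested, and 9 were higher and 1 lower in chondrocytes than in fibroblasts, with a median of 1.06. Bnip3, a mitophagy receptor, was higher in chondrocytes than in osteoblasts (4.69 ± 0.48 (SE), adjusted p = 2.0e-05), as was Ak4, a mitochondrial adenylate kinase (5.07 ± 0.78 (SE), adjusted p = 5.2e-04), and 7 of the 22 were higher and none lower in that comparison. In erythroid cells 2 of the 22 were higher and 8 lower than in B cells.

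The pentose phosphate pathway, which branches from the product of hexokinase and makes NADPH, had its highest count of raised genes in neutrophils. There 6 of its 8 genes were higher and 1 lower than in B cells, with a median of 2.41, including G6pdx (4.17 ± 0.64 (SE), adjusted p = 1.7e-04), its first enzyme, and Pgd (3.38 ± 0.49 (SE), adjusted p = 1.1e-04). In chondrocytes against fibroblasts 2 of the 8 were higher and none lower, with a median of 0.17. Of 12 genes of glycogen metabolism 7 were higher and 1 lower in neutrophils than in B cells, among them Pygl, a glycogen phosphorylase (7.43 ± 1.02 (SE), adjusted p = 8.4e-05), and none was higher and 1 lower in chondrocytes than in fibroblasts. Of 18 regulators of the flux tested 3 were higher and 1 lower in chondrocytes than in fibroblasts, with a median of 0.49, and 3 were higher and 1 lower in neutrophils than in B cells, with a median of -0.34, both shares near the 20.5% and 21.3% of all genes called in these comparisons. Pfkfb3, which makes the activator of phosphofructokinase, was higher in chondrocytes (3.62 ± 0.59 (SE), adjusted p = 5.2e-04) and in osteoblasts (2.61 ± 0.59 (SE), adjusted p = 0.0061) than in fibroblasts.

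Among the genes whose levels over the 9 classes were most like the summed members, by Pearson correlation of log2 CPM over 13418 genes, were Phyh (0.912), Foxo6os (0.905), Mypn (0.903) and 4932438H23Rik (0.899). The points are 9 classes of the same 2 libraries, and the muscle class holds the highest summed level.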

How the data were processed

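A pair of 10x single-cell RNA libraries was analysed, with groups from the labels. The deposited matrices hold UMI counts per gene and barcode, which the authors made with Cell Ranger 6.1.2 on mm10 (submitters' processing notes). Cells with at least 500 genes, 500 UMIs and at most 10% mitochondrial UMIs were kept. They were integrated and clustered in Seurat 5.3.0 (R 4.3.3, 3000 variable genes without the members and the 6 lists, 30 anchor dimensions, 15 principal components, resolution 0.8) and named from marker lists. The naming rule was set after the clusters were seen. No doublets were removed. UMIs were summed per class and library (at least 10 cells in each), and tested by edgeR 4.0.16 quasi-likelihood with TMM and filterByExpr, with Benjamini-Hochberg adjustment over all genes. DESeq2 1.42.0 was an alternative. Scripts were tested on simulated data. Poisson and binomial intervals (exact, SciPy 1.17.1) cover counting error only.

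All classes, or all stage groups, entered 1 fit and shared the estimate of spread. Sums with the same number come from the same library, which pairs them. The reported fits had no library term and left this pairing out. Deviations of same-library sums correlated over 36 class pairs at 0.04 to 0.46 (median 0.15, 28 over 0.1). All members were named, with Slc2a1, Gapdh, Bpgm, Ldhb, Hk1 and Eno1b, and in each comparison at most the 3 genes of each list with the largest called change of 1 direction in both libraries. Isoenzymes given as shares, and clusters, were named after their values were seen. The members and lists were chosen with earlier results of these data known. Smooth muscle and tenocyte classes and unnamed clusters entered no test. Of the genes most like the members, some are not reported here.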

Additional observations from a re-analysis of the deposited data

Results flagged for a closer look

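Reporter transcripts appeared in libraries labelled WT and entered no comparison above. EGFP had 6837 UMIs in library 2, and tdTomato had 1482 UMIs in library 1 and 4627 in library 2, all above the 3 counts that a count of 0 allows. The labels name no reporter allele. Xist, an RNA of the inactive X chromosome, was found in 3308 and 1121 of the 6276 and 2893 kept cells. Ddx3y, a Y-linked gene, was found in 951 and 504 of them. Transcripts of both sexes were thus present in each library, and how many mice they came from was not tested.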

How the results depend on the processing

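Of 100 member results with a test, 60 were called, 47 of them under all 10 alternatives with a test, and none of the 60 turned direction in those. The 13 lost calls are given beside their results, and the cause was not tested. Of the 40 results not called, 10 passed in at least 1 alternative and 18 turned direction. Leaving out the skeletal muscle sums was chosen after seeing the data. Leaving out a library leaves no test, and 59 of the 60 called results had the fitted direction in each library alone. The exception was Hk2 in stromal against blood classes (1.93), at -1.07 and 2.59.

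A replicate block for the library let Gpi1 pass in chondrocytes against fibroblasts (edgeR, adjusted p = 0.02), Pfkl in erythroid cells (0.045), Pkm in monocytes/macrophages (0.033), Eno1 in stromal classes (0.015) and Pfkl in cycling B cells (0.03). The block changed no other call, turned Aldoa in mature neutrophils to 0.0055, and raised the genes called in cycling B cells from 2073 to 3618.

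Members called in erythroid cells were 5 (3 in the reported fit) without the 5% of cells with the most UMIs, and in mature neutrophils 1 at resolution 0.4 and 1 at 1.2 (2 reported). Genes called in neutrophils against B cells were 4342 at resolution 1.2 (2878 reported), in mature neutrophils 2906 (4697 reported), and in cycling B cells 968 without the top 5% of cells. The mean over libraries of the summed CPM moved without integration to 1523 in B cells, 2062 in fibroblasts, 2969 in monocytes/macrophages and 3725 in neutrophils. As a mean over cells it was 978 in B cells, 7782 in chondrocytes, 672 in erythroid cells, 2573 in monocytes/macrophages and 3742 in neutrophils.

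These log2 values turned direction, none of them a called result. In osteoblasts against fibroblasts, Pgk1 was -0.028 with RLE size factors, Pgam1 0.13 at resolution 0.4 and 0.056 at 5% mitochondrial UMIs, and Eno1 0.19 at 0.4. In erythroid against B cells without the top 5% of cells, Pgk1 was 0.26 and Eno1 0.17. In monocytes/macrophages, Pfkl was -0.047 at 5% mitochondrial UMIs, where Ldha was -0.22, and Ldha was -0.0057 at resolution 1.2. In stromal against blood classes, Pfkl was 0.021 with DESeq2, Aldoa -0.18 at resolution 1.2, -0.13 at 5% mitochondrial UMIs and -0.020 without abundant genes, and Pgk1 -0.19, -0.19 and -0.040 under the same settings. In late erythroid cells Hk2 was -0.80 at resolution 0.4 and -0.84 at 1.2.

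In mature against immature neutrophils, RLE gave 0.13 for Gpi1, 0.43 for Pfkl, 0.71 for Aldoa, 0.51 for Eno1 and 0.60 for Ldha, and DESeq2 gave 0.16, 0.46, 0.72, 0.51 and 0.61. Without the low-gene filter Pfkl was 0.083, Aldoa 0.26, Eno1 0.053 and Ldha 0.18, and without abundant genes 0.15, 0.31, 0.10 and 0.23. At resolution 0.4 Hk2 was 0.72, Aldoa 0.36, Eno1 0.23 and Ldha 0.66, and at 1.2 Hk2 was 0.03, Pfkl 0.60, Aldoa 0.49, Eno1 0.22 and Ldha 0.68. Pgk1 passed there with RLE (0.87, adjusted p = 0.014) and DESeq2 (adjusted p = 0.00034). In cycling B cells Aldoa was -0.047 with RLE, -0.047 with DESeq2, -0.10 without the filter, -0.094 at resolution 1.2, -0.12 without abundant genes and -0.81 without the top 5% of cells. Depth limits Hk2 and Pfkl most, which rest on 0 and 1 UMI in fibroblasts of library 1.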
